A study of Mus musculus with 6 samples.

Results

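The genes described here are the matrix metalloproteinases (MMPs), the ADAMTS proteases and the TIMPs of the mouse optic nerve. They were taken by name, as every gene of the table whose symbol begins with Mmp, Adamts or Timp followed by a digit, which gave 40 of 25755 genes. Of these, 17 are Mmp genes, 19 are Adamts genes and 4 are Timp genes. Bulk RNA sequencing compared whole optic nerves of 3 mice with sham surgery (mice 1 to 3) and of 3 mice with bilateral optic nerve crush (ON-CR, mice 4 to 6). Surgery was done at 6 weeks of age and the nerves were taken at 3 months. Sham surgery was the incision without the crush. The study reports that optic gliomas formed after ON-CR in mice of the genotype and age used here. Differences between the groups below therefore do not separate the injury from a tumour, and the part of each was not tested. All 6 mice were NF1flox/flox;hGFAP-Cre, so Cre recombinase under the human GFAP promoter had removed Nf1 from neuroglial progenitors and their progeny in both groups, and the comparison holds no mouse with intact Nf1.

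MMPs are zinc-dependent enzymes that cut collagens, laminins, elastin and many proteins of the cell surface. They are made as inactive precursors, and most are secreted, while the membrane-type MMPs stay anchored at the cell surface. ADAMTS proteases are secreted relatives that bind the matrix through thrombospondin repeats, and several of them cut the chondroitin sulfate proteoglycans that fill the extracellular space of the central nervous system. TIMPs are the secreted inhibitors of these enzymes and bind them with high affinity. In nerve and brain, injury is known to alter the production of enzymes and inhibitors alike.

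The authors' values are normalised read counts, that is, estimated counts divided by a single factor per library. The depth was 19892892 to 23621006 estimated reads in sham libraries and 17414091 to 18978379 in ON-CR libraries. A value of 3 reads corresponded to 2.66 to 3.18 normalised reads. Oligodendrocyte and astrocyte markers were abundant in every library, with Mbp at 814697 or more in each sham mouse and 369255 or more in each ON-CR mouse. Sex-linked transcripts differed between the groups. Xist was at 2.14 to 30.9 in sham mice and at 2708 to 6357 in ON-CR mice, and Ddx3y was at 1291 to 1645 in sham mice and at 976, 4.19 and 0 for ON-CR mice 4, 5 and 6. ON-CR mouse 4 thus held both Xist and Y-linked transcripts, and its Eif2s3y (363) lay within the sham range of 358 to 525. For every gene below, an effect of sex and an effect of surgery cannot be told apart. The airway transcript Bpifa1 was at 7568 in sham mouse 3 and at 4579 and 5894 in ON-CR mice 5 and 6, against 0 to 22.3 in the other mice, and Bpifb1 followed it at a lower level. Of the 5 other epithelial markers measured, Krt18 was also highest in sham mouse 3 (308) and ON-CR mice 5 and 6 (146 and 106). It was at 26.9 to 105 in the other mice. Krt8 and Epcam were highest in sham mouse 3, and Muc5b and Krt5 in ON-CR mouse 5. None of the 7 was called.

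Of the 40 genes, 5 passed the threshold of an adjusted p of 0.05, and 3 of these 5 were inhibitors. Timp1, Timp2, Mmp12 and Mmp19 rose after ON-CR, and Timp4 fell. Timp3 had nearly equal means in both groups, and none of the 19 Adamts genes was called. These 5 are 12.5% of the members, and 2.1% of all 25755 genes were called by the same test. Of all genes, 0.971% were called higher and 1.13% lower, and of genes with a mean value of at least 10, among which are 31 members, 2.71% were called in either direction. The test was limma on log2(value + 1), fitted on the whole table with Benjamini-Hochberg adjustment over all genes, and all adjusted p-values and 95% confidence intervals below come from that fit unless an alternative is named. Log2 fold changes are ON-CR over sham on this scale, which understates the change of low genes. When the values were rescaled to equal library totals, the median log2 fold change of all genes moved from 0.03 to 0.15, and 4 genes were called higher and 0 lower in place of 4 and 1 (Timp4). Whole nerves were sequenced, so fewer cells of a type and less RNA per cell cannot be told apart. Single genes compared as 3 mice against 3 allow no two-sided exact permutation p below 0.1.

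**Figure D1:**
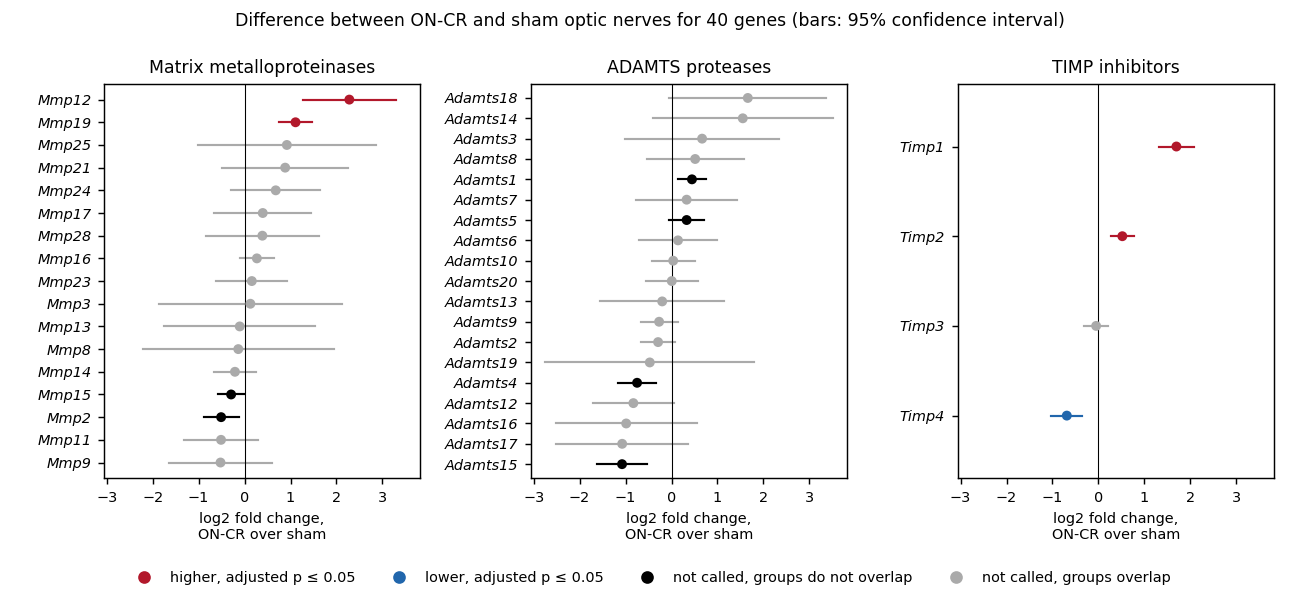
Log2 fold change of ON-CR over sham for each of the 40 genes (points) with its 95% confidence interval (bars), in 3 panels for the MMPs, the ADAMTS proteases and the TIMPs. Red and blue points mark the 4 genes called higher and the 1 called lower with the threshold of 0.05 for the adjusted p. Black points mark the 6 genes that were not called although their groups were separated.

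The TIMPs are described before the enzymes they inhibit. Timp1 encodes a secreted inhibitor of most MMPs, and its production is known to be induced in glia after injury. Timp1 (ENSMUSG00000001131.11) lies on chromosome X of GRCm38 from 20870166 to 20874735 on the plus strand, inside an intron of the synapsin gene Syn1. Its normalised read counts were 166, 135 and 165 for sham mice 1, 2 and 3 and 520, 433 and 566 for ON-CR mice 4, 5 and 6. The lowest ON-CR mouse was above the highest sham mouse by a wide margin, and the means were 155 ± 17.8 and 506 ± 67.6 (SD, n = 3 each), a ratio of 3.26. The log2 change was 1.70 (SE 0.17, limma adjusted p = 0.0015). Timp1 was the only one of the 5 called genes that stayed called whichever mouse was dropped, with its highest limma adjusted p, 0.0341, in the fit without ON-CR mouse 6. Of 901 tested genes on chromosome X, 13 were called (1.44%), and the median log2 fold change over all 901 was 0.07. Syn1 was at 92.0 to 137 in sham mice and 73.8 to 237 in ON-CR mice, with overlap.

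Timp2 encodes an inhibitor that also takes part, together with the membrane-type enzyme of Mmp14, in the activation of the Mmp2 precursor. The gene (ENSMUSG00000017466.9) lies on chromosome 11 from 118301069 to 118355740 on the minus strand. It was at 1883, 1788 and 1765 for sham mice 1, 2 and 3 and at 2735, 2334 and 2750 for ON-CR mice 4, 5 and 6. All ON-CR mice were above all sham mice, and the ratio of the means was 1.44. The means were 1812 ± 62.5 and 2606 ± 236 (SD, n = 3 each), with a log2 change of 0.52 (SE 0.11, limma adjusted p = 0.0426). This call was close to the threshold. It was kept with ON-CR mouse 5 left out and lost with any other mouse left out, with adjusted p-values by limma from 0.109 without sham mouse 1 to 0.206 without sham mouse 2.

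Timp4 moved the other way. It encodes the inhibitor with the most restricted tissue distribution of the family, with brain and heart among its main sites. The gene (ENSMUSG00000030317.8) lies on chromosome 6 from 115241892 to 115252205 on the minus strand. Its normalised read counts were 6407, 7593 and 5372 for sham mice 1, 2 and 3 and 4452, 4141 and 3390 for ON-CR mice 4, 5 and 6. Every ON-CR mouse was below every sham mouse. The means were 6457 ± 1111 and 3994 ± 546 (SD, n = 3 each), with a log2 change of -0.69 (SE 0.15, limma adjusted p = 0.0489). Among the 6 fits that left out a mouse, only that without ON-CR mouse 5 kept the call, and the highest adjusted p by limma was 0.243, without ON-CR mouse 6. The call was also lost with a pseudocount of 0.1 (limma adjusted p = 0.0574), with genes of a mean value of at least 10 only (0.0516) and with scaling to library totals (0.0684). Exons of Timp4 overlap those of Syn2 on the other strand, and Syn2 was at 224 to 368 in sham mice and 273 to 686 in ON-CR mice.

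Timp3 encodes the TIMP that is held in the extracellular matrix and that inhibits ADAM and ADAMTS enzymes as well as MMPs. The gene (ENSMUSG00000020044.13) lies on chromosome 10 from 86300372 to 86349506 on the plus strand. Timp3 was at 11149, 11107 and 13094 for sham mice 1, 2 and 3 and at 12198, 10549 and 11367 for ON-CR mice 4, 5 and 6. The ranges overlapped, with means of 11783 ± 1136 and 11372 ± 825 (SD, n = 3 each). The log2 change was -0.05, with a 95% confidence interval from -0.31 to 0.21 (limma adjusted p = 0.885), and it was 0.08 with scaling to library totals. The exons of Syn3 overlap those of Timp3 on the other strand, and Syn3, at 30.7 to 118 over all mice, was far lower.

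**Figure D2:**
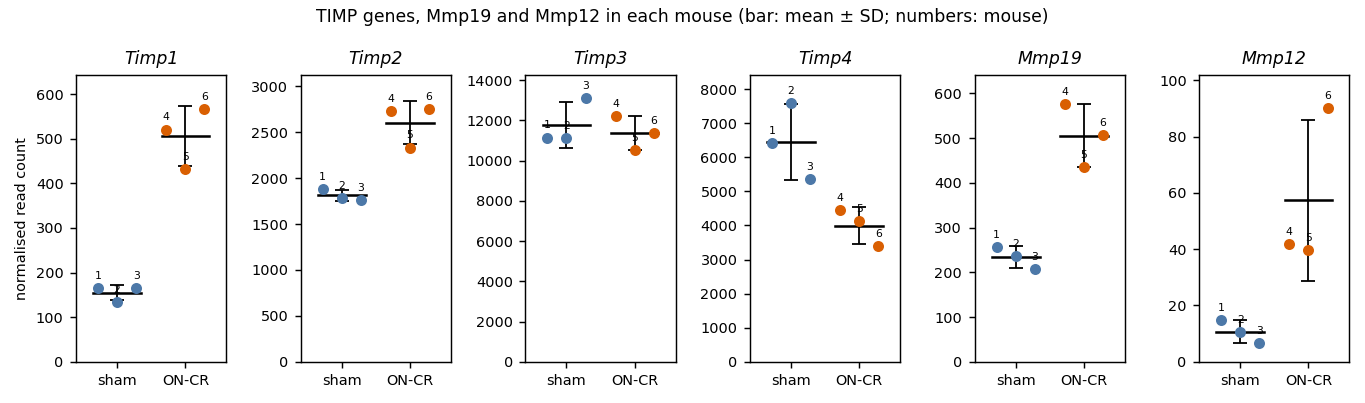
Normalised read counts of the 4 TIMP genes, Mmp19 and Mmp12 in each mouse (points, numbered by mouse), with the mean and SD of each group (black bars), on linear axes from 0. Timp1, Timp2, Mmp19 and Mmp12 are higher in every ON-CR mouse than in every sham mouse, Timp4 is lower, and Timp3 overlaps, with means of 11783 and 11372.

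Levels can be set side by side between genes only per length, so values were divided by the summed length of a gene's annotated exons in kb. This length unites all annotated transcripts (888 bases for Timp1 and 5894 for Timp4) and may exceed that of the transcripts expressed. Levels, shares and ranks between genes per kb, here and below, therefore depend on the annotation. On this scale the 4 TIMPs together came to 3126, 3262 and 3158 normalised reads per kb for sham mice 1, 2 and 3 and to 3541, 3084 and 3314 for ON-CR mice 4, 5 and 6. The totals overlapped between the groups, while the makeup differed. Timp1 made up 4.65% to 5.96% of the TIMP total in sham mice and 15.8% to 19.2% in ON-CR mice. For Timp4 the shares were 28.9% to 39.5% in sham mice and 17.4% to 22.8% in ON-CR mice. Timp2 went from a range of 14.1% to 15.5% to a range of 19.4% to 21.3%. Timp3 held the largest share in each mouse, between 41.8% and 50.9%. The value per kb of Timp4 was 4.90 to 8.50 times that of Timp1 in sham mice and 0.903 to 1.44 times that of Timp1 in ON-CR mice. These shares restate the values of the single genes and were not tested.

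**Figure D3:**
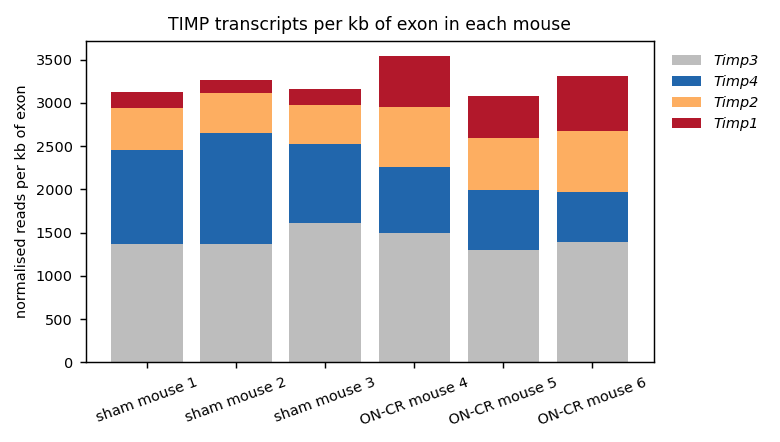
Stacked normalised reads per kb of exon for Timp3, Timp4, Timp2 and Timp1 in each of the 6 mice, from 0. The height of the bars lies between 3084 and 3541 in all mice, and the red segment of Timp1 is wider and the blue segment of Timp4 narrower in each ON-CR mouse than in each sham mouse.

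Of the 4 TIMPs, Timp1 and Timp2 rose, Timp4 fell and Timp3 had nearly equal means. The 100 bases before their RefSeq starts are shown so that these regions can be compared. The sequences are from RefSeq (GRCm38.p6), 5′ to 3′ on the strand of the gene, and the capitals mark a GC box, GGGCGG on either strand, which is the letters bound by Sp1-type factors. No match to the AP-1 motif TGANTCA or to TATAAA was found in these stretches. Timp1 covers chrX:20870066-20870165, Timp2 chr11:118355412-118355511 on the minus strand, Timp3 chr10:86300312-86300411 and Timp4 chr6:115252206-115252305 on the minus strand.
Timp1: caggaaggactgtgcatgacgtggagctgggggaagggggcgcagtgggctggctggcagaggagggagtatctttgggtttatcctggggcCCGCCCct
Timp2: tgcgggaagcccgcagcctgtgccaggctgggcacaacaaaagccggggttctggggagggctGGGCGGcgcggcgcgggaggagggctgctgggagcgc
Timp3: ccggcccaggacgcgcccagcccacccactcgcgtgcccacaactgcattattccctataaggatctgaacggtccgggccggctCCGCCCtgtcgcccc
Timp4: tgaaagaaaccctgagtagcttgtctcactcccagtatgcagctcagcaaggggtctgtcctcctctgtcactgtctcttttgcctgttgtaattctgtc
Timp1, Timp2 and Timp3 each held a GC box, 8, 37 and 15 bases before the start, and Timp4 held none in this stretch. A link between these letters and the changes after ON-CR was not tested. Over 250 bases before and 50 bases after the start, a GC box was present in 35.7% of all 32851 promoters and in 18 of the 28 promoters listed for 26 of the 40 members (64.3%). The absence of a match says only that these letters are not in the window.

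Among the MMPs, 2 of 17 were called, both higher. Mmp19 encodes a secreted MMP that cuts proteins of the basement membrane. The gene (ENSMUSG00000025355.7) lies on chromosome 10 from 128790910 to 128800824 on the plus strand. Its normalised read counts were 256, 236 and 207 for sham mice 1, 2 and 3 and 576, 435 and 506 for ON-CR mice 4, 5 and 6. All ON-CR mice were above all sham mice, with means of 233 ± 24.6 and 506 ± 70.5 (SD, n = 3 each). The ratio of the means was 2.17 and the log2 change 1.11 (SE 0.16, limma adjusted p = 0.00781). The call was lost without ON-CR mouse 6 (limma adjusted p = 0.0789) and without sham mouse 2 (0.0529), with log2 fold changes of 1.10 and 1.12. Exons of Mmp19 overlap Tmem198b and Gm47093 on the other strand, and the value of Mmp19 was a whole number of reads in only 1 of 6 mice, so its count is uncertain. Tmem198b was at 541 to 649 in sham mice and 637 to 689 in ON-CR mice (log2 fold change 0.15, limma adjusted p = 0.632). Per kb, Mmp19 made up 9.99% to 12.1% of the sum over all Mmp genes in sham mice and 21.9% to 23.4% in ON-CR mice.

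Mmp12 had the largest fold change of the 5 called genes. It encodes macrophage metalloelastase, an elastin-cutting enzyme made chiefly by macrophages. The gene (ENSMUSG00000049723.14) lies on chromosome 9 from 7344381 to 7369499 on the plus strand. Sham mice 1, 2 and 3 had values of 14.9, 10.6 and 6.57, which stand for 14, 12 and 7 reads. ON-CR mice 4, 5 and 6 had values of 41.9, 39.8 and 90.3, which stand for 42, 38 and 87 reads. The groups did not overlap, and ON-CR mouse 6 stood far above the other ON-CR mice. The means were 10.7 ± 4.14 and 57.4 ± 28.6 (SD, n = 3 each), a ratio of 5.37, and the log2 change was 2.28 (SE 0.46, limma adjusted p = 0.0346). With a mouse left out, the log2 fold change stayed between 1.90 and 2.53, while only the fit that dropped ON-CR mouse 5 kept the call, and the limma adjusted p was 0.205 without ON-CR mouse 6. Exons of Mmp12 overlap Mmp1b on the other strand, which had no deposited values.

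Mmp12 belongs to a cluster of MMP genes on chromosome 9, in which Mmp13, Mmp12, Mmp3 and Mmp8 were measured, in this order, between 7272514 and 7568485. The other 3 were near the limit of detection. The collagenase gene Mmp13 was at 1.77 to 10.4, the stromelysin gene Mmp3 at 0 to 5.98 and the neutrophil collagenase gene Mmp8 at 0 to 7.43 over all 6 mice. None of them was called, and their confidence intervals, the narrowest from -1.75 to 1.53 for Mmp13, left changes of 2-fold in either direction undetectable at this depth. The 100 bases before the RefSeq start of 3 members of the cluster are shown because they share a motif. The capitals mark the AP-1 motif TGANTCA, a binding site of Fos and Jun proteins, and the box TATAAA, and the sequences are from RefSeq (GRCm38.p6) on the plus strand at chr9:7347274-7347373 for Mmp12, chr9:7272414-7272513 for Mmp13 and chr9:7445722-7445821 for Mmp3.
Mmp12: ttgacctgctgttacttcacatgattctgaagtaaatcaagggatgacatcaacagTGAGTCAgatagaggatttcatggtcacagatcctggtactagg
Mmp13: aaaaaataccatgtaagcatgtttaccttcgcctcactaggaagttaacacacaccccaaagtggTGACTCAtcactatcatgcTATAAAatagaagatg
Mmp3: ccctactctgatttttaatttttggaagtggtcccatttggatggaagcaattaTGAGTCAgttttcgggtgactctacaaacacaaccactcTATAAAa
The AP-1 motif began 44, 35 and 46 bases before the start in Mmp12, Mmp13 and Mmp3. These were the 3 member promoters of 28 that held it (10.7%), against 7.81% of all 32851 promoters searched on both strands. Mmp12 has another listed start, whose promoter held neither the AP-1 motif nor TATAAA. Of the 3 genes only Mmp12 was called, and Mmp13 and Mmp3 were too low for a 2-fold change to be detected.

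The gelatinases cut denatured collagen and the type IV collagen of basement membranes. Mmp2 was at 438, 483 and 347 for sham mice 1, 2 and 3 and at 336, 256 and 295 for ON-CR mice 4, 5 and 6. All ON-CR mice were below all sham mice, by a narrow gap, and the log2 fold change of -0.51 was not called (95% confidence interval from -0.90 to -0.13, limma adjusted p = 0.18). Mmp9, the gelatinase of neutrophils and activated microglia, was low, at 12.2 to 24.4 in sham mice and 6.98 to 17.7 in ON-CR mice, and was not called (95% confidence interval from -1.64 to 0.59, limma adjusted p = 0.672). Of the neutrophil markers, 7 of 9 were measured, and their sum was 88.5 to 392 in sham mice and 197 to 328 in ON-CR mice, with 0 of 7 called.

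None of the 6 membrane-type MMPs was called. Mmp14, whose enzyme activates the Mmp2 precursor, was at 628, 744 and 713 for sham mice 1, 2 and 3 and at 795, 422 and 640 for ON-CR mice 4, 5 and 6. ON-CR mouse 4 was the highest and ON-CR mouse 5 the lowest of all mice, and the log2 fold change was -0.21 (95% confidence interval from -0.67 to 0.25, limma adjusted p = 0.684) and 0.04 without ON-CR mouse 5. Mmp15 was at 641 to 730 in sham mice and 508 to 622 in ON-CR mice, without overlap, and its log2 fold change of -0.29 was not called (limma adjusted p = 0.314). Mmp16 had values of 388 to 552 in sham mice and 530 to 640 in ON-CR mice, with overlap and a log2 fold change of 0.27 (limma adjusted p = 0.477). Mmp17, Mmp24 and Mmp25 were low, with a mean over all mice of 31.8, 24.9 and 20.8. Mmp25 was at 76.8 in ON-CR mouse 6 and at 4.24 to 18.8 in the other 5 mice. The stromelysin-like gene Mmp11 was at 105 to 139 in sham mice and 45.1 to 131 in ON-CR mice, and it was not called. Its exons overlap those of Chchd10 on the other strand, which fell from 1948 to 3073 in sham mice to 201 to 497 in ON-CR mice, so that the counting of Mmp11 is uncertain.

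Among the ADAMTS proteases, Adamts4 and Adamts15 had lower and Adamts1 and Adamts5 higher values after ON-CR, without overlap between the groups, but none was called. All 4 belong to the 7 members that cut proteoglycans of the lectican family. Of the 40 genes, 11 had groups that did not overlap (27.5%), 6 of them higher and 5 lower after ON-CR, against 21.6% of all genes, 10.5% higher and 11% lower, and 24.6% of genes with a mean value of at least 10.

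Adamts4, the aggrecanase made in the central nervous system by oligodendrocytes, was the most abundant protease of the family. It lies on chromosome 1 from 171250421 to 171260637 (ENSMUSG00000006403.13). Its normalised read counts were 3206, 3438 and 2588 for sham mice 1, 2 and 3 and 2411, 1434 and 1735 for ON-CR mice 4, 5 and 6. Every ON-CR mouse was below every sham mouse, with means of 3077 ± 439 and 1860 ± 500 (SD, n = 3 each). The log2 change was -0.75 (SE 0.19, limma adjusted p = 0.075). Without ON-CR mouse 4, the ON-CR mouse nearest to the sham mice, it was -0.95 (limma adjusted p = 0.0206).

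Adamts15 encodes a further lectican-cutting enzyme. It lies on chromosome 9 from 30899155 to 30922452 on the minus strand (ENSMUSG00000033453.8), and the start of Adamts8, which was at 7.43 to 23.1 over all mice, lies nearby on the plus strand. Adamts15 was at 190, 205 and 197 for sham mice 1, 2 and 3 and at 134, 71.3 and 84.1 for ON-CR mice 4, 5 and 6. The sham mice differed little from each other and the ON-CR mice were all lower, with means of 197 ± 7.29 and 96.3 ± 32.9 (SD, n = 3 each). Its log2 fold change was -1.08 (SE 0.24), and the adjusted p by limma was 0.0557 with all mice, 0.0361 with robust variance moderation and 0.0189 without ON-CR mouse 4. Over the other settings it lay between 0.0538 and 0.243.

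Adamts1 and Adamts5 are neighbours on chromosome 16 (85793827 to 85803113 and 85856173 to 85901828), both on the minus strand, and both encode enzymes that cut aggrecan and versican. Adamts1 was at 420, 432 and 448 for sham mice 1, 2 and 3 and at 655, 506 and 620 for ON-CR mice 4, 5 and 6. All ON-CR mice were higher, with a log2 fold change of 0.45 (95% confidence interval from 0.13 to 0.76, limma adjusted p = 0.15). Adamts5 was at 171, 195 and 160 for sham mice 1, 2 and 3 and at 245, 195 and 221 for ON-CR mice 4, 5 and 6. The groups of Adamts5 were separated by less than 1 normalised read (194.8 in sham mouse 2 and 195.0 in ON-CR mouse 5), and the log2 fold change was 0.33 (limma adjusted p = 0.397). Adamts2, which trims the amino end of procollagens, was at 387 to 530 in sham mice and 325 to 408 in ON-CR mice, with a log2 fold change of -0.29 (limma adjusted p = 0.427).

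**Figure D4:**
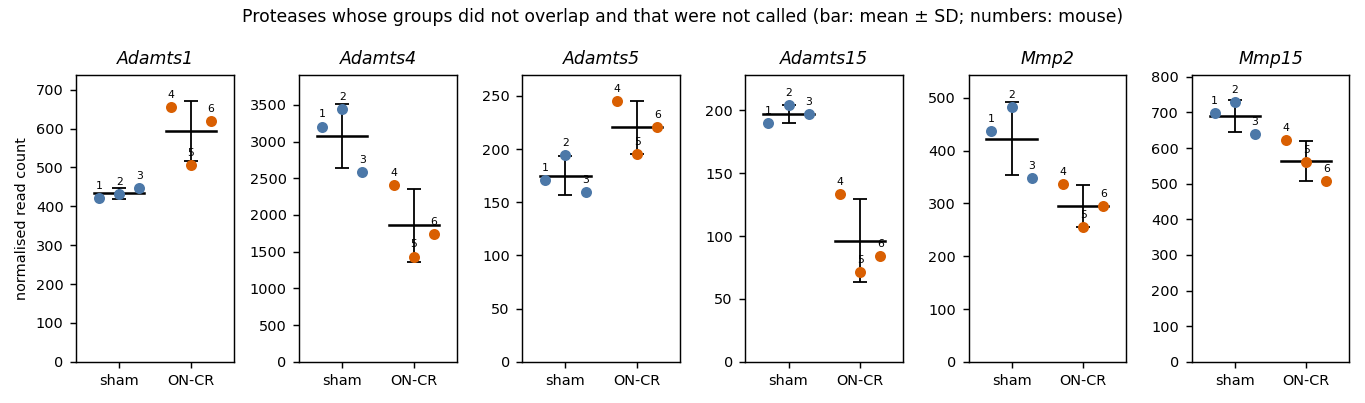
Normalised read counts of Adamts1, Adamts4, Adamts5, Adamts15, Mmp2 and Mmp15 in each mouse (points, numbered by mouse), with the mean and SD of each group (black bars), on linear axes from 0. The groups do not overlap in any of the 6 panels, and none of the 6 genes was called, with Adamts15 the nearest at an adjusted p of 0.0557 by limma.

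With the filter of the study's methods, which asks for an unadjusted p of at most 0.05 and a change of at least 2-fold, 4 of the 40 genes passed. They were Mmp12, Mmp19 and Timp1, which were higher, and Adamts15, which was lower. With library total scaling and with sample quality weights the log2 fold change of Adamts15 was -0.95 and -0.98, so it missed the filter, and the low-count gene Adamts18 passed in its place. Adamts15 also missed the filter without ON-CR mouse 5, at -0.89. Of all genes 4.66% passed this filter, 3.17% higher and 1.49% lower. Timp2 and Timp4 did not reach a fold change of 2. The study applied this filter to DESeq2 results, while the p-values used here are from limma. Its results section states a stricter filter before the pathway analysis, which was not applied here.

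The other 25 members held no call under either rule, and their groups overlapped. Of these, 16 had a mean value of at least 10 and 9 a lower one. Adamts3, Adamts13, Adamts14, Adamts18, Adamts19, Mmp3, Mmp8, Mmp13 and Mmp21 were the members under 10. Adamts18 had no more than 3 reads in any sham mouse and was at 2.08 to 8.97 in ON-CR mice, a difference that was not called. In the other direction, Adamts16 and Adamts17 had log2 fold changes of -0.99 and -1.07 with wide confidence intervals, from -2.52 to 0.55 and from -2.51 to 0.36. Adamts12, which cuts cartilage matrix proteins, was at 41.6 to 67.9 in sham mice and 21.8 to 53.8 in ON-CR mice, with overlap. Adamts6, Adamts7, Adamts8, Adamts9, Adamts10 and Adamts20 had log2 fold changes between -0.27 and 0.52, as did Mmp17, Mmp23 and Mmp28. The median log2 fold change of all 40 members was 0.08, against 0.03 for all genes.

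Per kb of exon, the order of the levels in sham mice began with Timp3 (1447 normalised reads per kb), Timp4 (1096), Adamts4 (640), Timp2 (465) and Timp1 (175). In ON-CR mice it began with Timp3 (1396), Timp4 (678), Timp2 (669), Timp1 (570) and Adamts4 (387). Timp4 and Timp2 were neighbours within their spread in ON-CR mice, at 575 to 755 and 599 to 706 normalised reads per kb. Adamts4 alone made up 66.6% to 74.9% of the sum over all Adamts genes per kb in sham mice and 56.6% to 62.8% in ON-CR mice. Of the MMPs, Mmp19 went from the place behind Mmp15, Mmp2 and Mmp14 in sham mice, at 66.0, to the highest place in ON-CR mice, at 143 normalised reads per kb.

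**Figure D5:**
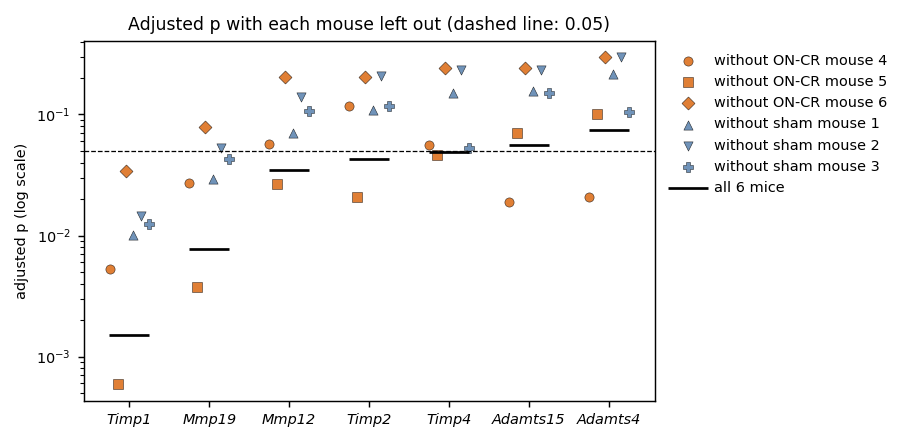
Adjusted p by limma of Timp1, Mmp19, Mmp12, Timp2, Timp4, Adamts15 and Adamts4 with all 6 mice (black line) and with each mouse left out (symbols), on a log axis, with the threshold of 0.05 dashed. Timp1 stays under the threshold in every fit, at most at 0.0341, and the fit without ON-CR mouse 6 gives Mmp12, for example, 0.205.

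Other genes of extracellular proteolysis were described from lists of inhibitors, activators, related proteases and substrates. In all, 90 genes of these lists were measured, and 8 were called higher and 5 lower (14.4% called). Of all 25755 genes, 2.1% were called, 0.971% higher and 1.13% lower. The lists were chosen with earlier results of these data known, so the counts here and below are no test of enrichment. Of 9 plasminogen system genes, whose protease plasmin activates several MMP precursors, 3 were called, all higher. Plau, the urokinase that makes plasmin, went from 10.5 ± 2.30 to 60.8 ± 10.4 (SD, n = 3 each), with a log2 change of 2.43 (limma adjusted p = 0.00846). Its receptor gene Plaur and the plasmin inhibitor gene Serpinf2 rose by 1.82 and 2.18 on the log2 scale (limma adjusted p = 0.0305 and 0.011). Plat, the tissue-type activator, was at 5736 ± 986 and 6241 ± 1138 (SD, n = 3 each) and was not called. Without ON-CR mouse 6 or sham mouse 2 all 3 calls were lost (limma adjusted p = 0.0763, 0.205 and 0.0998 without ON-CR mouse 6, and 0.0506, 0.136 and 0.0538 without sham mouse 2, for Plau, Plaur and Serpinf2). Plaur was called only without ON-CR mouse 5, with values of 0.0595 to 0.205 in the other fits.

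Of 14 genes for activators, inducers and docking partners, 3 were called higher and 1 lower. Lcn2, whose protein binds the Mmp9 enzyme and protects it from degradation, went from 49.8 ± 11.2 to 579 ± 88.0 (SD, n = 3 each), with a log2 change of 3.53 (limma adjusted p = 0.000136). Cd44, the hyaluronan receptor that can hold MMPs at the cell surface, went from 741 ± 132 to 2413 ± 354 (SD, n = 3 each), with a log2 change of 1.71 (limma adjusted p = 0.000957). Both calls held with each mouse left out. Cd9, which encodes a tetraspanin, had a log2 change of 0.84 and Itgb3, which encodes an integrin subunit, had one of -1.05 (limma adjusted p = 0.0257 and 0.0287). The calls of Cd9 and Itgb3 were lost without sham mouse 2 (0.157 and 0.173), sham mouse 3 (0.101 and 0.0992) or ON-CR mouse 6 (0.180 and 0.123), that of Cd9 also without ON-CR mouse 4 (0.0619) and that of Itgb3 also without sham mouse 1 (0.0860).

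Among 11 other inhibitor and clearance genes, 0 were called higher and 3 lower. Spock1 and Spock3, which encode testicans, matrix proteoglycans that bind MMPs, had log2 changes of -1.17 and -1.33 (limma adjusted p = 0.00535 and 0.00219). Fbln1, which encodes fibulin-1, a matrix cofactor of the Adamts1 enzyme, had a log2 change of -1.07 (limma adjusted p = 0.00815). Reck, A2m and the clearance receptor gene Lrp1 were not called. The call of Spock3 held in each fit that left out a mouse. Without ON-CR mouse 6 those of Spock1 and Fbln1 were lost (limma adjusted p = 0.0518 and 0.0763), and that of Fbln1 was also lost without sham mouse 2 (0.0571) or sham mouse 3 (0.05001).

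Few of the substrates and related proteases were called. None of 13 ADAM genes and none of 5 ADAMTS-like genes passed. Of 13 genes of lecticans and their hyaluronan matrix, only Hapln2, a link protein gene, was called, and it fell by 3.08 on the log2 scale (limma adjusted p = 0.00264). Bcan, which encodes brevican, a substrate of the Adamts4 enzyme, was at 7175 ± 1241 and 4293 ± 1265 (SD, n = 3 each) without overlap and was not called (log2 fold change -0.77, limma adjusted p = 0.102). Of 17 collagen and basement membrane genes, 0 were called by limma. Of the 17, 16 had a log2 fold change below 0 and the median was -0.31, against 12147 of all 25755 genes and a median of 0.03. All 17 were measured in the same mice, so their signs are not separate observations, and the set was not tested. Of 8 AP-1 subunit genes, Fos and Junb were called, both higher, with log2 changes of 2.06 and 1.69 (limma adjusted p = 0.00279 and 0.0248). Fos lost its call without ON-CR mouse 6 (0.0502), and Junb lost it without sham mouse 1 (0.0760), sham mouse 2 (0.116), ON-CR mouse 4 (0.0722) or ON-CR mouse 6 (0.138).

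Markers of several cell types moved with these genes, and their part in the results was not tested. Of 9 microglia and macrophage markers, 4 were called higher (Aif1, C1qa, C1qb and Cd68), and their summed value was 15724 to 20037 in sham mice and 21395 to 34412 in ON-CR mice, beside the rises of Mmp12, Mmp19 and Timp1. Of the 5 that were not called, Itgam was higher in every ON-CR mouse, Csf1r and Cx3cr1 overlapped with log2 fold changes of 0.33 and 0.72, and the homeostatic microglia genes P2ry12 and Tmem119 had values of -0.35 and -0.27, with Tmem119 lower in every ON-CR mouse. Of 7 astrocyte markers, 0 were called higher and S100b was called lower, and the sum was 184818 to 222870 in sham mice and 256798 to 291160 in ON-CR mice. Most of this sum was Gfap, at 99186 to 123408 in sham mice and 156465 to 202957 in ON-CR mice. The other 6 together summed to 85632 to 100877 in sham mice and 87068 to 100333 in ON-CR mice. Among them, Aqp4 and Slc1a3 were also higher in every ON-CR mouse, with log2 fold changes of 0.43 and 0.31. Aldh1l1 overlapped at 0.14, and S100b, Gja1 and Slc1a2 had values of -0.75, -0.30 and -0.19. Of 7 oligodendrocyte markers, 6 were called lower, and their sum was 1262630 to 1812840 in sham mice and 612406 to 722487 in ON-CR mice, beside the lower values of Timp4 and Adamts4. Fibroblast and meningeal markers, 0 of 8 of which were called, summed to 392888 to 435842 in sham mice and 300938 to 395271 in ON-CR mice, beside the lower values of Mmp2. Most of that sum was Ptgds, and without it the sums were 23081 to 27495 and 15010 to 21951. Of 8 endothelial and mural markers 0 were called, with sums of 4311 to 5126 and 4217 to 5308. No marker of these lists was at 0 in all mice.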

How the data were processed

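RNA of optic nerves from 3 sham and 3 ON-CR mice was sequenced with a SMARTer Ultra Low kit, for which strand was not stated to be kept. Per the study's methods, the authors used DRAGEN for alignment and gene counts with Ensembl mm10 models, then median normalization in Partek Flow 10.0, so the deposited signal is a normalised read count per gene. The study tested with DESeq2, which needs raw counts and was not run here.

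Groups were taken from the sample titles. For all 25755 genes, log2(value + 1) was compared between groups by limma (3.58.1, R 4.3.3). The prior variance followed the mean, and p-values were adjusted by the Benjamini-Hochberg method. No gene with deposited values was filtered out of this fit. The deposited values already lacked low genes, with a lowest mean of 1.50 over the 6 mice. Of 45 annotated family genes, 5 had no deposited values (Mmp1b, Mmp7, Mmp10, Mmp20 and Mmp27). The fit was tested on simulated data. Estimated reads are values divided by that of 1 read (0.885 to 1.06), the most frequent low value. Under 200 reads, 72.0% to 74.0% of values were then whole within 0.05 reads, so no count model was run. Positions and exon lengths are from GENCODE M21 (GRCm38), and the exon length unites all transcripts of a gene.

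Members and lists were chosen with earlier results of these data known. Described one by one were all TIMPs, members that were called or passed the study's filter, those with a mean of at least 10 and no overlap, and the 12 most abundant. Other members and uncalled genes of the lists were named after their values were seen, and subgroups by function were set then too. Alternatives were pseudocounts of 0.1 and 2, upper-quartile, TMM and library total scaling, a mean of at least 10, robust moderation, sample quality weights and leaving out each mouse. Protein sequences were not used here. Osteoclast, T cell and muscle markers were also listed, with 2 of 6, 0 of 6 and 1 of 6 called.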

Additional observations from a re-analysis of the deposited data

How the results depend on the processing

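The number of members called was 4 to 6 under the 8 alternatives that kept all mice and 1 to 5 with a mouse left out. Only Timp1 was called without sham mouse 2 or ON-CR mouse 6, Timp1 and Mmp19 without sham mouse 1 or 3, Adamts4, Adamts15, Mmp19 and Timp1 without ON-CR mouse 4, and Mmp12, Mmp19, Timp1, Timp2 and Timp4 without ON-CR mouse 5. Members passing the study's filter numbered 4 under all alternatives with 6 mice, with Adamts18 in place of Adamts15 under library total scaling and sample quality weights, and 4 to 6 with a mouse left out. Mmp12, Mmp19 and Timp1 passed it in every fit. Genes of the other lists that were called numbered 13 to 16 with 6 mice and 4 to 15 with a mouse left out. The fewest were without ON-CR mouse 6 (4) and sham mouse 2 (6). The log2 fold change of Timp3 changed sign, to 0.079 with library total scaling, and lay between -0.10 and 0.029 with a mouse left out. That of Mmp14 lay between -0.41 and 0.041 with a mouse left out. The signs of the other 13 members described one by one were the same in every alternative. The causes of these changes were not tested. Median-normalised values leave 9 members below a mean of 10, where a 2-fold increase lay within every 95% confidence interval. No paired analysis was possible because the groups were separate mice and the labels record no matching between them.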
